A study of Astyanax mexicanus with 36 samples.

Results

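The 53 genes described here encode the proteins of the large subunit of the cytosolic ribosome in the Mexican tetra, Astyanax mexicanus, with a few close relatives of them. They are the genes whose symbol, in any letter case, begins with rpl or rplp followed by a number, 53 of the 27420 genes in the deposited count table, and each of the 53 is also in the authors' table of normalised values. Of their symbols, 4 are carried by 2 genes each, so the gene identifier is given for these copies. They are rpl19, rpl22, rpl35a and rpl37. The rule also takes in RPL3L, rpl7l1, rpl22l1 and rplp2l, whose names mark them as relatives of rpl3, rpl7, rpl22 and rplp2.

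Oocytes were taken from right ovaries of untreated, wild-type adults at about 520 days after fertilization. The fish were eyed surface fish and cavefish of the Pachón and Molino populations, which are blind. Each population had 3 libraries of total RNA in each of 4 size classes, labelled 40um, 40_100um, 100_300um and 300um, or 36 libraries in 12 groups. Whether the outer labels, 40um and 300um, are limits or sizes is not stated, and neither is whether replicates are separate fish, so the p-values rest on the spread between libraries, and that spread may be technical.

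The large subunit, called 60S, holds the site where amino acids are joined and the tunnel through which the new chain leaves. Its proteins are made in the cytosol, carried to the nucleolus and fitted onto ribosomal RNA with the help of assembly factors, and the precursor is then exported. In vertebrates the mRNAs of ribosomal proteins start with a pyrimidine tract that lets mTOR signalling and the RNA-binding protein LARP1 set their translation, so their mRNA level is not the amount of protein made. A growing oocyte builds up the ribosomes that the early embryo uses before its own genome is active. In frogs and fishes, 5S ribosomal RNA is stored in small oocytes in particles with non-ribosomal proteins, ahead of the other ribosomal RNAs.

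Levels are given as CPM, read counts of a gene relative to the size of its library, after TMM scaling, which sets libraries on a common scale from the bulk of their genes. Reads assigned to genes numbered 2992120 to 9345330 per library, with 55764 to 187032 of them in the 53 genes. At 40um a mean of 36.4% of reads were assigned to genes and 21.1% matched several places, against 67.7% and 8.56% at 40_100um. The oocyte marker list (12 of 14 genes in the table, gdf9, bmp15, figla and zar1 among them) had reads in each size class, summing to 1737 to 15637 CPM per library. Markers of granulosa, steroidogenic, stromal, endothelial, blood and liver cells (83 genes in the table, of which lum at 100_300um and 300um, gata1a at 100_300um and a copy of HBE1 at 40um had no read) summed to 2419 to 14326 CPM at 40um, to 407 to 669.9 CPM at 40_100um, to 478 to 1793 CPM at 100_300um and to 479 to 1723 CPM at 300um. In these bulk samples, fewer cells of a type and less RNA per cell cannot be told apart. The library numbers in the labels fall into a series for 40um, a series for the middle classes and a series for 300um, so the first and the last size step cannot be told apart from a change of series, and the middle step lies within a series.

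The large subunit genes took their largest share of reads at 40um in each population. In surface fish the 53 genes held 2.12, 2.72 and 2.73% of the reads assigned to genes at 40um, 1.396, 1.09 and 1.28% at 40_100um, 1.32, 0.971 and 1.11% at 100_300um and 1.21, 1.05 and 1.02% at 300um. In Pachón the shares were 3.67, 4.02 and 3.69% at 40um, 2.14, 1.68 and 1.64% at 40_100um, 1.0995, 1.14 and 1.13% at 100_300um and 1.70, 1.44 and 1.47% at 300um. In Molino they were 2.77, 2.94 and 3.15% at 40um, 1.31, 1.46 and 1.22% at 40_100um, 1.16, 1.07 and 1.14% at 100_300um and 1.12, 1.098 and 1.33% at 300um. Pachón libraries lay above the surface and Molino libraries at 40um, 40_100um and 300um with no overlap, and within the surface range at 100_300um. The 29 genes of the small subunit moved with them, since the large subunit share was 1.46 to 1.79 times the small subunit share in the 36 libraries.

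**Figure D1:**
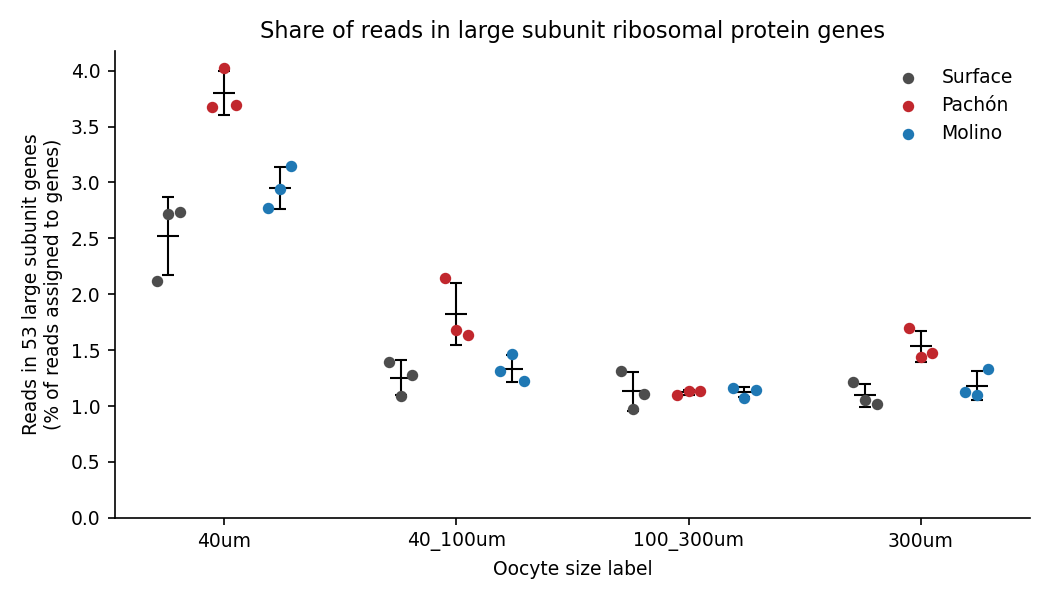
Share of reads assigned to genes that fall in the 53 large subunit genes (y axis, %) by size label (x axis) and population (colour); each point is a library, and the bar and whiskers are the mean and SD of 3. Each 40um library lies above 2%, the Pachón points lie highest at 40um, 40_100um and 300um, and the populations overlap at 100_300um.

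From 40um to 40_100um nearly the whole set fell. Averaged over the 3 populations, 51 of 53 genes were lower at 40_100um and 1 was higher (edgeR quasi-likelihood test, Benjamini-Hochberg adjusted p under 0.05), where 43.8% of all 18259 tested genes were lower and 29.8% higher. The median log2 change of the 53 genes was -1.29, against -0.32 for all genes. Each change is a log2 fold change followed by its standard error (SE), and a gene past that threshold is said to be called. Over 4 scalings the median of all genes lay between -0.47 and -0.17, and relative to it the median of the 53 genes lay between -0.9997 and -0.98.

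Among the stalk proteins, which recruit elongation factors, the base protein rplp0 went from 600.4 to 1534 CPM with a median of 991 at 40um to 285 to 772 CPM at 40_100um, a change of -1.25 (SE 0.13, adjusted p = 7.44e-10). The highest 40_100um library of rplp0 overlapped the low end of the 40um range. The paired stalk proteins rplp1 and rplp2 fell by 1.32 (SE 0.12, adjusted p = 1.8e-10) and 1.58 (SE 0.15, adjusted p = 1.07e-10), and rpl12 at the base of the stalk fell by 1.08 (SE 0.13, adjusted p = 2.37e-08). All 5 stalk genes fell.

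The proteins that carry 5S ribosomal RNA into the subunit, rpl5 and rpl11, fell by unequal amounts. The rpl5a copy went from 352 to 1134 CPM with a median of 739.9 at 40um to 94.2 to 213 CPM at 40_100um, so its groups did not overlap, and it changed by -2.13 (SE 0.17, adjusted p = 7.92e-12). The rpl5b copy went from 643 to 1409.9 CPM with a median of 808 to 451 to 1036 CPM, ranges that overlap, and changed by -0.54 (SE 0.10, adjusted p = 1.76e-05). Their partner rpl11 fell by 0.81 (SE 0.12, adjusted p = 4.51e-07).

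Near the site of peptide bond formation, rpl3 went from 1725 to 7156 CPM with a median of 2988 at 40um to 945 to 3884 CPM at 40_100um, overlapping ranges, and fell by 0.88 (SE 0.16, adjusted p = 2.03e-05). The smallest fall of this role was that of rpl4, which reaches into the exit tunnel, by 0.69 (SE 0.10, adjusted p = 2.35e-07). The late-joining protein rpl10, which supports the binding of tRNA, fell by 1.17 (SE 0.13, adjusted p = 3.57e-09), and rpl10a, the protein of the L1 stalk over which spent tRNA leaves, by 1.19 (SE 0.11, adjusted p = 6.15e-11). All 10 genes of the exit tunnel and its rim fell, with a median of -1.42. Among them rpl39, a small protein of the tunnel wall, fell by 1.74 (SE 0.17, adjusted p = 2.21e-10).

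The smallest adjusted p-values of this step belonged to rpl35a (ENSAMXG00000041448), rpl23, rpl5a and rpl36a. The first of them, rpl35a, is a gene that is mutated in some patients with Diamond-Blackfan anaemia. Its level went from 106 to 304 CPM with a median of 178 at 40um to 44.6 to 113 CPM at 40_100um, and it fell by 1.52 (SE 0.12, adjusted p = 3.32e-12). The interface protein rpl23, on which the assembly factor eif6 docks, fell by 1.21 (SE 0.10, adjusted p = 6.8e-12), and rpl36a, close to the exit site of tRNA, by 1.25 (SE 0.10, adjusted p = 1.11e-11). All 27 genes without a role list fell.

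The single gene that rose was rpl7l1, which resembles rpl7 and the yeast assembly factor Rlp7. It went from 27.9 to 58.4 CPM with a median of 43.3 at 40um to 50.0 to 82.6 CPM at 40_100um, ranges that overlap, and rose by 0.63 (SE 0.11, adjusted p = 9.62e-06). The muscle paralog of rpl3 in mammals, RPL3L, did not pass the test and had few reads, at 0 to 2.12 CPM at 40um and 0 to 6.20 CPM at 40_100um, with 242 reads in all 36 libraries. The paralog rpl22l1 fell by 0.43 (SE 0.16, adjusted p = 0.017), and that call was lost in 5 of 8 alternative analyses and when any of 14 libraries was left out, each 40um surface and Pachón library among them (adjusted p = 0.0583 to 0.308). Markers of other cells fell at the same step, from the sums given above to at most 669.9 CPM per library, and so did the share of reads that matched several places. Their part in the fall of the large subunit genes was not tested.

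**Figure D2:**
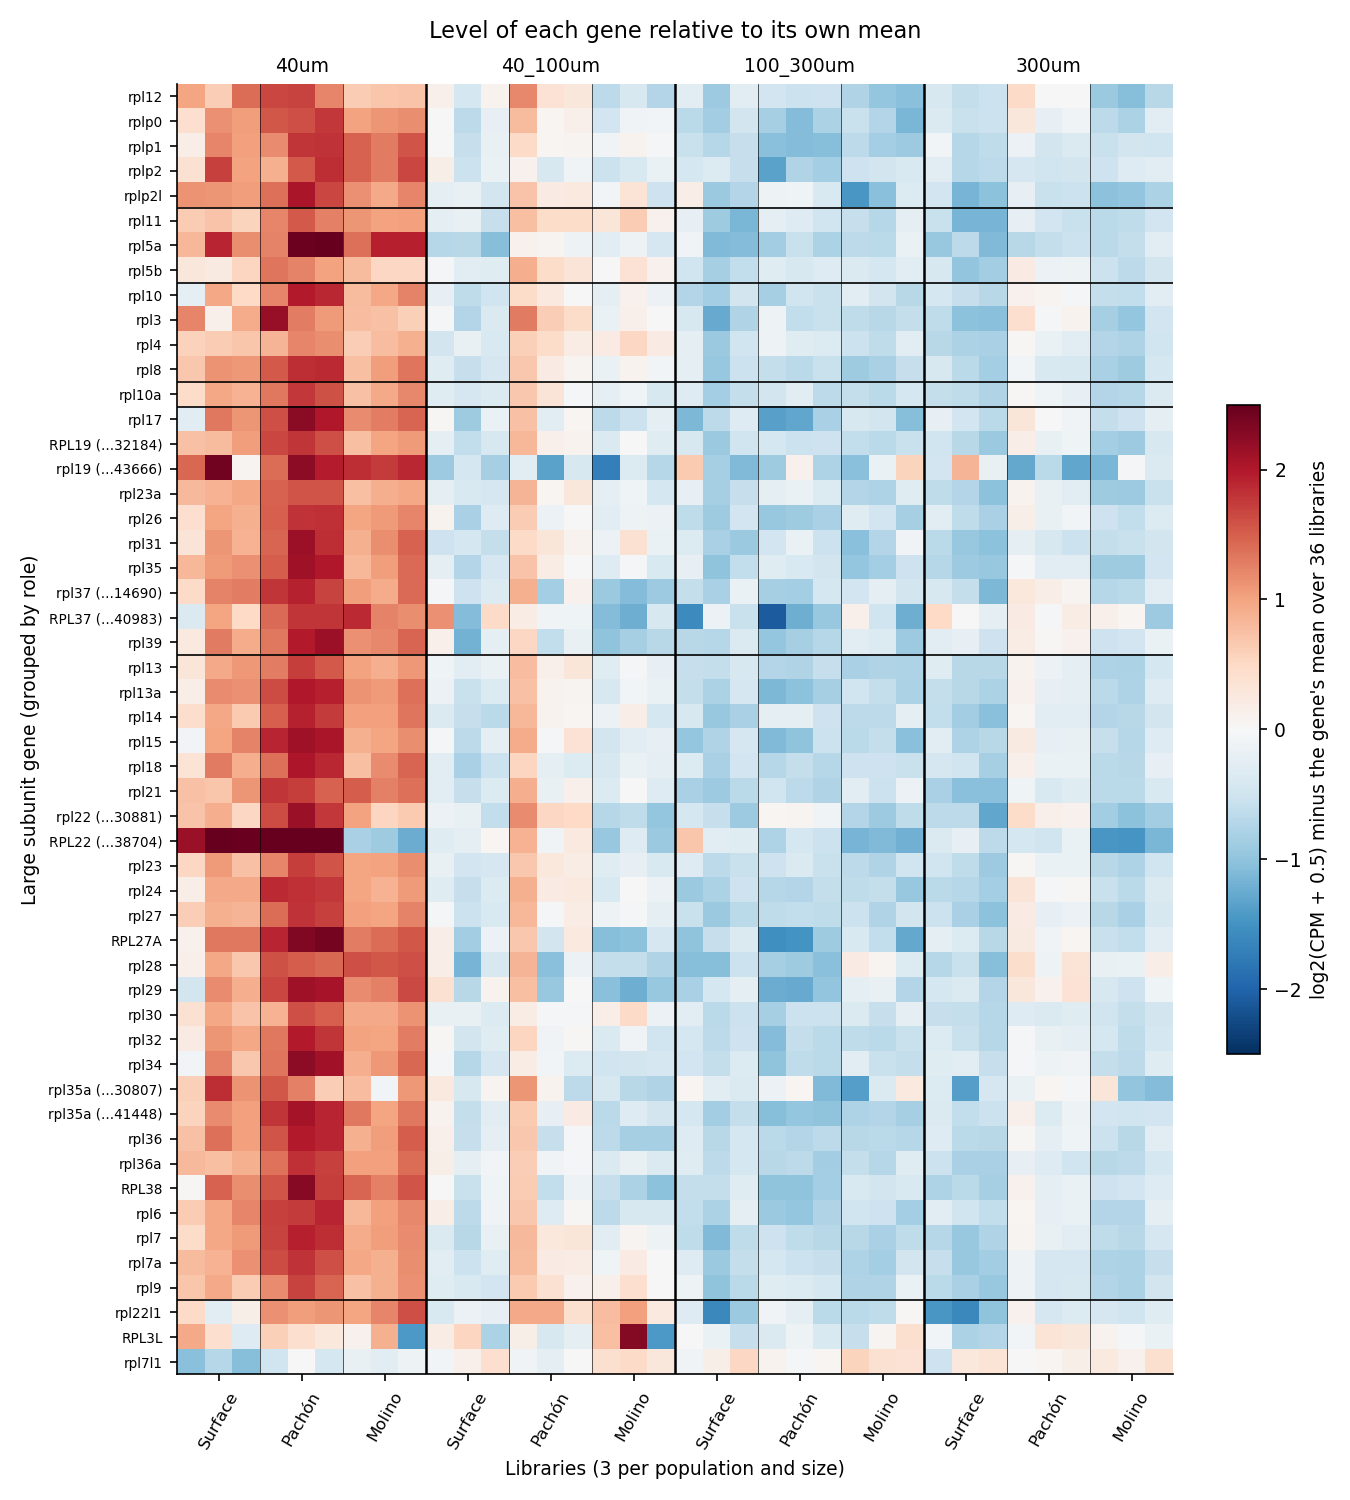
Level of 52 of the 53 genes (rows, grouped by role; identifiers of copies are shortened) in each of the 36 libraries (columns), as log2(CPM + 0.5) minus the gene's mean, with colours cut off at 2.5 either way. The 40um libraries are on average the highest for nearly all rows, with ranges that overlap those of 40_100um in many of them. The rpl7l1 row runs the other way, and RPL22 (ENSAMXG00000038704) is low in Molino at 40um.

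From 40_100um to 100_300um the set fell again, by less. Of the 53 genes, 40 were lower and 0 higher, where 8.37% of all tested genes were lower. The median change was -0.52, against 0.19 for all genes, so the set moved against the bulk of genes. With library totals in place of TMM the median of all genes was 0.40, that of the 53 genes -0.30, and 27 genes were lower and 1 higher. Relative to all genes the median of the set lay between -0.72 and -0.70 under the 4 scalings. Without surface fish replicate 1 at 100_300um, surface fish replicate 2 at 300um and Molino replicate 3 at 300um, which had raised markers of other cells, 42 genes were lower. For these and later alternative analyses, those that leave out single libraries included, no share of all genes is given. Their counts therefore describe the set alone.

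The stalk fell together at this step, with 5 of 5 genes called. For rplp1 the 9 libraries went from 222 to 461 CPM with a median of 335 at 40_100um to 155 to 227 CPM at 100_300um, and it fell by 0.82 (SE 0.12, adjusted p = 1.49e-05). Only the highest library at 100_300um reached above the lowest at 40_100um. The fall of rplp0 was 0.75 (SE 0.13, adjusted p = 5.53e-05), that of rpl12 0.64 (SE 0.13, adjusted p = 0.000468) and that of rplp2 0.42 (SE 0.14, adjusted p = 0.0257), the last of which was lost with library totals (adjusted p = 0.302) and without Pachón replicate 1 at 100_300um or surface fish replicate 1 at 40_100um (adjusted p = 0.064 to 0.0725).

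In the 5S particle, rpl5b went from 451 to 1036 CPM with a median of 597 at 40_100um to 312 to 453 CPM at 100_300um, ranges that overlap, and fell by 0.64 (SE 0.10, adjusted p = 2.18e-05). Its partner rpl11 fell by 0.72 (SE 0.12, adjusted p = 3.63e-05). The rpl5a copy, which had fallen most of the 3 before, did not pass the test here, with 94.2 to 213 CPM at 40_100um and 92.4 to 187 CPM at 100_300um. All 4 genes of the peptidyl transferase region fell, rpl3 by 0.77 (SE 0.16, adjusted p = 0.000646), rpl4 by 0.55 (SE 0.10, adjusted p = 8.39e-05) and rpl10 by 0.50 (SE 0.13, adjusted p = 0.00366). The L1 stalk protein rpl10a fell by 0.45 (SE 0.11, adjusted p = 0.00163). The calls of rpl10 and rpl10a were lost with library totals (adjusted p = 0.0759 and 0.0625).

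Of the 10 genes of the exit tunnel and its rim, 7 fell, with a median of -0.47 over the 10. Here rpl39 did not pass, with 69.6 to 226 CPM at 40_100um and 80.7 to 132 CPM at 100_300um. The smallest adjusted p-value of the step was that of rpl7. It went from 333 to 942 CPM with a median of 491 at 40_100um to 249 to 373 CPM at 100_300um and fell by 0.70 (SE 0.10, adjusted p = 1.26e-05). After it came rpl13, which fell by 0.68 (SE 0.10, adjusted p = 1.89e-05). Among the paralogs rpl22l1 fell by 0.95 (SE 0.16, adjusted p = 5.26e-05), while rpl7l1 did not pass, with 50.0 to 82.6 CPM and 55.6 to 87.5 CPM.

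From 100_300um to 300um no large subunit gene passed the edgeR test, where 0.4% of all genes did in either direction. At an unadjusted p under 0.05 there were 15 of 53. DESeq2 called 1, library totals 1, and a fit of the 18 libraries of these classes called 7, all higher. For these settings no share of all genes is given, so the counts are not read as particular to the set. The median change was 0.12, against -0.03 for all genes, with 35 genes of the set above 0 and 18 below. The smallest adjusted p was that of rpl35a (ENSAMXG00000041448), at 33.8 to 52.3 CPM at 100_300um and 46.5 to 77.98 CPM at 300um, overlapping ranges, with a log2 difference of 0.45 (SE 0.11, adjusted p = 0.091).

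**Figure D3:**
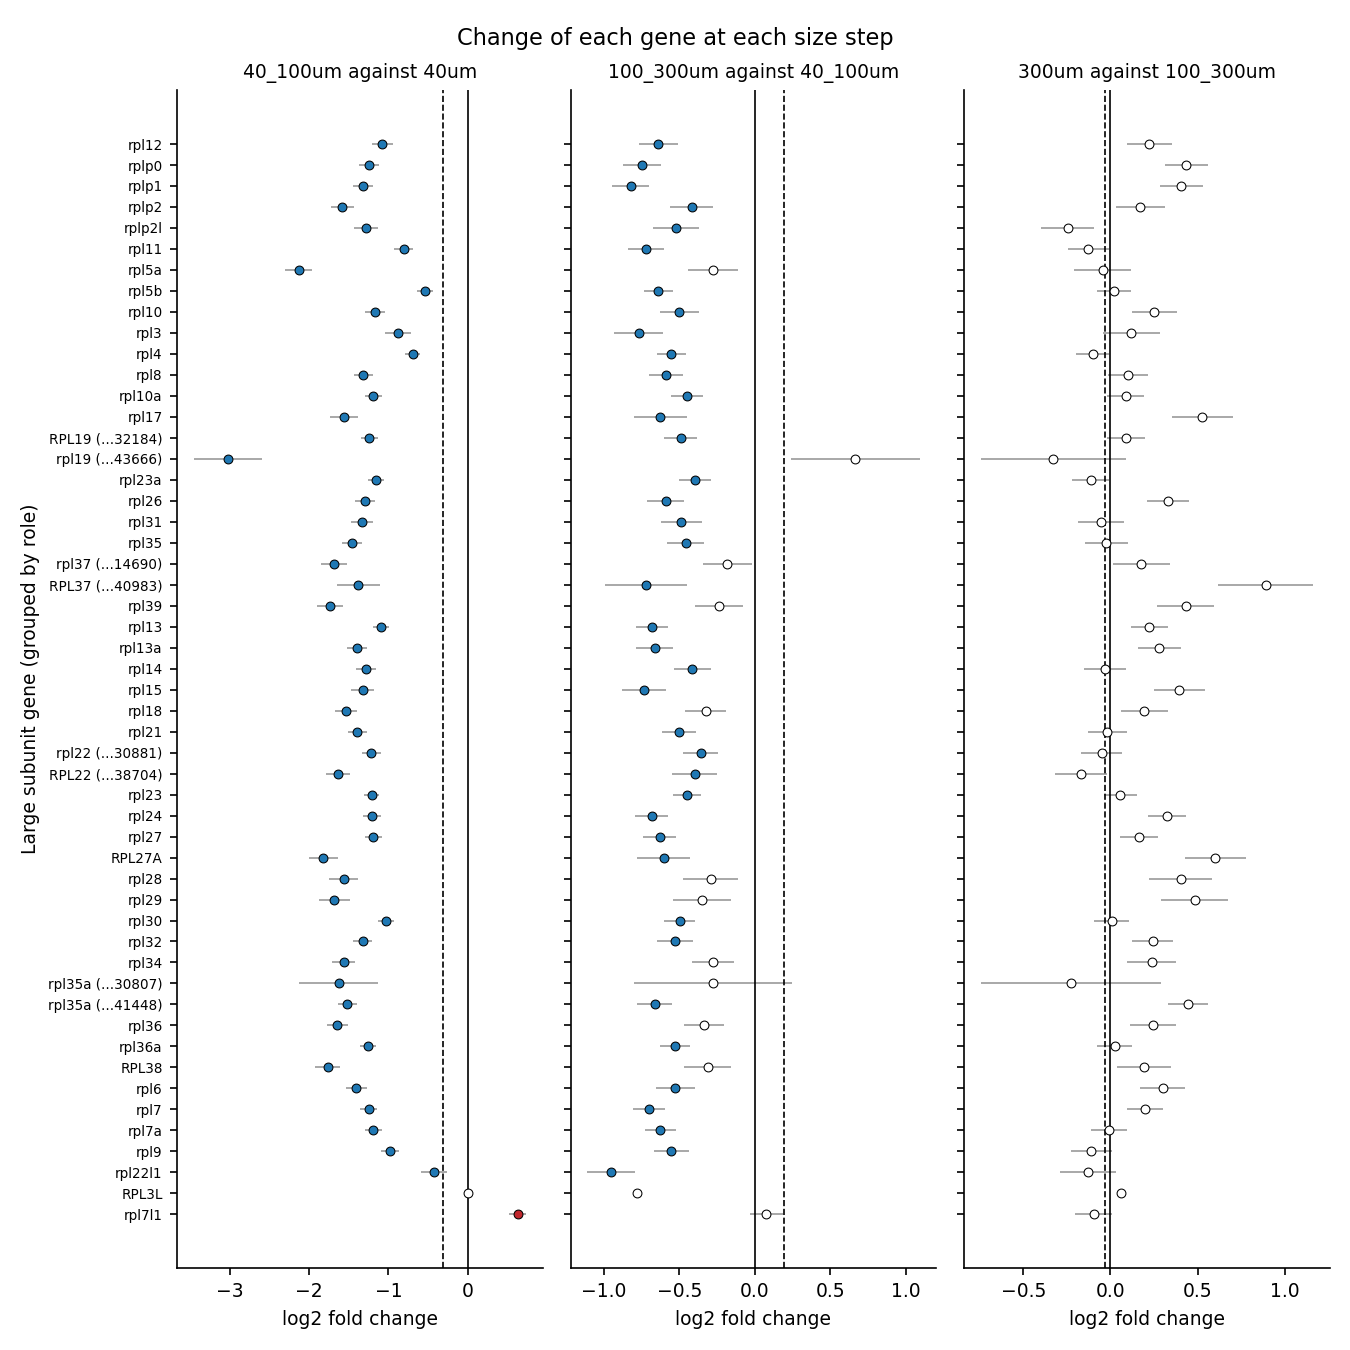
Log2 fold change (x axis) of 52 of the 53 genes (rows, grouped by role) at each size step, averaged over populations, with its SE as a line (not drawn for RPL3L); blue points are called lower, red called higher and white not called, and the dashed line is the median of all genes. The panels have different x scales. At the first step 50 points are blue, at the second 39, and at the third none is coloured.

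Whether the steps differed between populations was tested as an interaction in the fit of all libraries. That fit, which also gave the size steps, uses 1 estimate of the spread of a gene for all classes. Its common dispersion (the squared coefficient of variation beyond counting error) was 0.129, against 0.246 in the 40um libraries alone. The SEs and p-values of the first step and its interactions may thus be too small. In the libraries of each other size alone the common dispersion was 0.0509 to 0.0691. The SEs and p-values of the second and last steps and their interactions may thus be too large. An absent call there does not show that a gene did not change. For the first step, 1 of 53 genes was called as differing between Pachón and surface fish, rpl7l1, downward, where 3.59% of all genes differed downward. The median difference of the set was -0.17, against 0.30 for all genes. In surface fish rpl7l1 was at 28.5, 35.9 and 27.9 CPM at 40um and 56.0, 64.4 and 79.0 CPM at 40_100um, and in Pachón at 41.8, 58.4 and 43.3 CPM and 55.2, 50.0 and 58.5 CPM. The surface groups do not overlap and the Pachón groups do, and the difference of the steps was -0.92 (SE 0.27, adjusted p = 0.0362). It was lost in 3 of 8 alternative analyses and without surface fish replicate 2 or 3 at 40_100um, Pachón replicate 1 or 2 at 40_100um, surface fish replicate 1 or 3 at 40um or Pachón replicate 2 at 40um (adjusted p = 0.0597 to 0.15).

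For Molino against surface fish, the first step differed upward for 1 gene, where 1.36% of all genes did, and downward for 2, where 2.21% did. The median difference of the set was -0.18, against -0.0085 for all genes. The gene with the upward difference was RPL22 (ENSAMXG00000038704), described below with its copy, at 2.88 (SE 0.37, adjusted p = 4.26e-05). Of the genes with a downward difference, rpl29 was at 36.3, 114 and 93.8 CPM in surface fish and 114, 121 and 157 CPM in Molino at 40um, and at 65.4, 30.7 and 53.6 CPM and 24.0, 21.2 and 25.6 CPM at 40_100um. Each Molino library was above each surface library at 40um, though the nearest libraries both round to 114 CPM, and below at 40_100um. The difference of the steps was -1.77 (SE 0.47, adjusted p = 0.0302). The low copy RPL37 (ENSAMXG00000040983) was at 7.81, 20.6 and 14.6 CPM and 38.6, 24.6 and 23.5 CPM at 40um and at 23.2, 4.51 and 14.3 CPM and 4.57, 4.09 and 7.62 CPM at 40_100um, with a difference of -2.38 (SE 0.66, adjusted p = 0.0399). Both were lost in the fit of the 18 libraries of these classes (adjusted p = 0.194 and 0.115). The first was also lost without surface fish replicate 1 or 3 at 40_100um, Molino replicate 1 or 2 at 40_100um, surface fish replicate 1 at 40um or Molino replicate 3 at 40um (adjusted p = 0.0516 to 0.0933), and the second without surface fish replicate 1 or 3 at 40_100um, Molino replicate 1 or 2 at 40_100um, surface fish replicate 1 or 3 at 40um or Molino replicate 1 or 3 at 40um (adjusted p = 0.0533 to 0.152).

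For the second step no large subunit gene was called as differing between populations, where 0.011% of all genes were for Pachón and 0% for Molino. For Pachón, edgeR gave an unadjusted p under 0.05 for 28 of 53 genes, and DESeq2 called 0. The median difference was -0.63, against -0.11 for all genes. For Molino 7 genes had an unadjusted p under 0.05, DESeq2 called 0, and the median was -0.15, against 0.04 for all genes. The last step was tested in the same way after its values had been seen, and again no gene of the set was called for Pachón (0% of all genes, 22 of 53 at an unadjusted p under 0.05, median 0.60, DESeq2 0) or Molino (0% of all genes, 0 of 53, median 0.08, DESeq2 0). In Pachón 52 of 53 differences were above 0 at the last step and 51 of 53 below 0 at the second. Both use the same 100_300um libraries. For all genes the median at the last step was -0.04 for Pachón and -0.06 for Molino. Shares of all genes are not given for these signs or for the unadjusted p, so no pattern particular to the set is read from them.

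Within each size class the populations were then compared in fits of its 9 libraries, in which 51 of the 53 genes had enough reads to be tested. The low copy rpl35a (ENSAMXG00000030807) was left out throughout, together with RPL3L at 40um, 100_300um and 300um and with the low copy rpl19 (ENSAMXG00000043666) at 40_100um. Pachón stood above surface fish in most of the set at 40_100um and 300um. At 40_100um 27 of 51 genes were higher in Pachón and 0 lower, where 16.8% of all genes were higher, and the median difference was 0.58 against -0.0011 for all genes.

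At 40_100um the 5S particle and the peptidyl transferase region were called in full. The rpl5a copy was at 121, 123 and 94.2 CPM in surface fish and 213, 208 and 182 CPM in Pachón, groups that do not overlap, a difference of 0.75 (SE 0.13, adjusted p = 0.000933). Its partner rpl11 was at 316, 322 and 246 CPM and 618, 504 and 507 CPM, likewise apart, a difference of 0.80 (SE 0.15, adjusted p = 0.0013). For rpl4 the values were 686, 825 and 722 CPM and 1428, 1295 and 1073 CPM, a difference of 0.68 (SE 0.14, adjusted p = 0.00199). Each Pachón library of these 3 genes lay above each surface library. Of the other roles, 1 of 5 stalk genes (rplp2l), 4 of 9 tested tunnel genes (rpl35, RPL19 (ENSAMXG00000032184), rpl31 and rpl23a), the L1 stalk gene rpl10a, 13 of 26 genes without a role list and 1 of 3 paralogs (rpl22l1) were higher. Leaving out Pachón replicate 1, which had the largest share of large subunit reads of the class, gave 22 genes and a median of 0.35. The share of all genes in that fit is not given.

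Other markers moved with this comparison. Granulosa markers summed to 21.7 to 45.2 CPM in surface fish and 91.9 to 99.9 CPM in Pachón at 40_100um, and oocyte markers to 5504 to 6495 CPM and 7825 to 10971 CPM, each without overlap. Steroidogenic markers were also higher in Pachón, at 0.144 to 2.07 CPM and 7.04 to 8.45 CPM, and hepatocyte markers lower, at 28.7 to 49.7 CPM and 7.96 to 13.7 CPM, again without overlap. The sum over all lists other than oocytes overlapped, at 489 to 616 CPM and 407 to 552 CPM. Their part in the difference was not tested.

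At 300um 39 of 51 genes were higher in Pachón than in surface fish and 0 lower, where 15.9% of all genes were higher. The median difference was 0.53, against -0.03 for all genes. The tunnel and its rim had 8 of 10 genes higher, all but the low copies of rpl19 and rpl37. In the peptidyl transferase region 3 of 4 were higher (rpl3, rpl4 and rpl10), in the 5S particle 2 of 3 (rpl5b and rpl11) and in the stalk 2 of 5 (rplp0 and rpl12).

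The smallest adjusted p was that of rpl24, a protein that bridges to the small subunit, at 170.1, 165 and 151 CPM in surface fish and 338, 262 and 276 CPM in Pachón, a difference of 0.86 (SE 0.12, adjusted p = 0.000696). The peptidyl transferase protein rpl3 was at 1018, 772 and 767 CPM and 2096, 1545 and 1666 CPM, a difference of 1.06 (SE 0.18, adjusted p = 0.00152). For rpl28, a protein that budding yeast lacks, the values were 30.7, 34.3 and 24.0 CPM and 69.3, 46.6 and 64.4 CPM, a difference of 1.03 (SE 0.18, adjusted p = 0.0019). None of these groups overlapped. Of the 27 genes called higher at 40_100um, 24 were also called at 300um, where 39 were called. The classes are not independent, since same-numbered libraries of a population deviated together between them (r over 0.1 in 8 of 9 pairs). The overlap over all genes is not given.

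The count at 300um was 26 to 46 when single libraries were left out, 29 without surface fish replicate 2 and Molino replicate 3, which had raised markers of other cells, and 19 in the fit of all 36 libraries. Shares of all genes under these settings are not given, so these counts describe the set alone. With library totals the median was 0.40, and relative to that of all genes it was 0.557, against 0.560 with TMM. At 300um markers of other cells summed to 831 to 1723 CPM in surface fish and 479 to 696 CPM in Pachón, and oocyte markers to 2983 to 4157 CPM and 4814 to 6012 CPM, each without overlap, with the hepatocyte, erythrocyte, macrophage and stroma lists each lower in Pachón without overlap, and their part in the difference was not tested.

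At 40um no large subunit gene was called between Pachón and surface fish by edgeR, where 2.88% of all genes were. All 51 lay above 0, with a median of 0.86 against -0.07 for all genes. At an unadjusted p under 0.05 there were 31, and DESeq2 called 18 higher. A fit with replicate numbers as a block called 4, and the fit of all 36 libraries 45. The shares of all genes under these settings are not given, so these counts are not read as particular to the set. The spread between libraries was widest at this size, with a common dispersion in edgeR (the squared coefficient of variation beyond counting error) of 0.246 against 0.0509 to 0.0691 at the other sizes. Granulosa markers summed to 217 to 1137 CPM in surface fish and 1448 to 3074 CPM in Pachón at 40um, without overlap; steroidogenic markers were likewise higher and hepatocyte markers lower in Pachón without overlap, and their part was not tested.

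At 100_300um the set did not stand apart between Pachón and surface fish. There 1 gene was higher, where 10% of all genes were, and 5 were lower, where 9.86% were, with a median of -0.11. The stalk protein rplp1 was at 227, 201 and 222 CPM in surface fish and 162, 155 and 158 CPM in Pachón, with no overlap, and was lower by 0.49 (SE 0.11, adjusted p = 0.0128). Also lower were RPL38, which in mice is needed for the patterning of the skeleton, by 0.50 (SE 0.13, adjusted p = 0.0223), rpl29 by 0.73 (SE 0.20, adjusted p = 0.028) and rplp2 by 0.55 (SE 0.16, adjusted p = 0.0346). The fifth was rpl13a. The calls of these first 4 genes were lost in 1, 2, 2 and 5 of 8 alternative analyses. They were also lost without Pachón replicate 2 for rplp1 (adjusted p = 0.0562), surface fish replicate 3 or Pachón replicate 1 or 2 for RPL38 (adjusted p = 0.0798 to 0.0856), surface fish replicate 2 or 3 or Pachón replicate 1 or 2 for rpl29 (adjusted p = 0.0659 to 0.102) and any of 6 libraries for rplp2 (adjusted p = 0.0513 to 0.103). The count of calls was 1 to 9 when single libraries were left out, moved most by surface fish replicate 3 and Pachón replicates 1 and 2, and 9 (6 higher, 3 lower) without surface fish replicate 1, which had raised markers of other cells. Markers of other cells summed to 774 to 1793 CPM in surface fish and 478 to 577 CPM in Pachón at this size, without overlap, and their part was not tested.

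Molino differed from surface fish in few genes of the set at each size. At 40um 1 gene was lower, where 0.302% of all genes were, and 0 higher. At 40_100um 8 were higher, where 14.1% of all genes were, and 1 lower, where 15.4% were, at 100_300um 1 higher (6.63% of all genes) and 1 lower (7.95%), and at 300um 2 higher (7.35%) and 1 lower (9.13%). The medians were 0.19, 0.12, -0.04 and 0.07 in rising order of size. The share of the set called higher at 40_100um, 100_300um and 300um was near or below that of all genes. Hepatocyte markers were lower in Molino at each size, and erythrocyte markers higher at 40um and lower at 40_100um and 100_300um, without overlap, and their part was not tested.

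At 40_100um rpl4 and rpl11 were higher in Molino as they were in Pachón; both comparisons use the same surface libraries. In Molino rpl4 was at 1089, 1343 and 1082 CPM, a difference of 0.65 (SE 0.14, adjusted p = 0.0031), and rpl11 at 453, 568 and 395 CPM, a difference of 0.68 (SE 0.15, adjusted p = 0.00405). Both lay above each surface library. The low copy RPL37 (ENSAMXG00000040983) was lower by 1.39 (SE 0.48, adjusted p = 0.0468), with overlapping libraries, and lost its call with the replicate block (adjusted p = 0.0539) and when any library but surface fish replicate 2 was left out (adjusted p = 0.0611 to 0.204). Also higher were rpl5a, rpl31, rpl30 and rpl9, and the count of calls was 6 to 16 when single libraries were left out, the highest without Pachón replicate 1.

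The protein rpl28 was higher in Molino than in surface fish at 100_300um, at 59.0, 53.3 and 40.3 CPM against 24.3, 24.1 and 35.04 CPM, a difference of 0.81 (SE 0.20, adjusted p = 0.0187). At 300um it was at 45.0, 45.6 and 57.0 CPM in Molino, a difference from surface fish of 0.72 (SE 0.18, adjusted p = 0.0193). Neither comparison had overlapping libraries. The call at 100_300um was lost in the fit of all 36 libraries (adjusted p = 0.0849) and without surface fish replicate 2 or Molino replicate 1 or 2 (adjusted p = 0.061 to 0.0909). The call at 300um was lost in that fit (adjusted p = 0.189), without surface fish replicate 2 and Molino replicate 3 together, which had raised markers of other cells (adjusted p = 0.0529), and without surface fish replicate 3 or Molino replicate 3 (adjusted p = 0.0619 to 0.075).

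Between the cave populations, the median of the set lay above 0 for Pachón against Molino at 40um, 40_100um and 300um. At 300um 36 of 51 genes were higher in Pachón and 0 lower, where 18.5% of all genes were higher, with a median of 0.47. At 40_100um 16 were higher (19.4% of all genes) and 1 lower (18.2%), with a median of 0.48. At 100_300um 1 was higher (13.5%) and 4 lower (11.5%), with a median of -0.08, and at 40um 1 higher (1.87%) and 0 lower. The median at 40um was the largest, 0.74 against 0.09 for all genes, in the class with the widest spread between libraries (common dispersion 0.246). The counts ranged over 14 to 41 at 300um and 6 to 27 at 40_100um when single libraries were left out, the lowest of them without Molino replicate 2 and without Pachón replicate 1. They moved by over 1.5 times also without Pachón or Molino replicate 1 at 300um, and without surface fish replicate 2 or Molino replicate 1 or 3 at 40_100um. These comparisons share the Pachón libraries with those against surface fish.

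Marker sums moved with these differences too. At 40_100um granulosa markers summed to 91.9 to 99.9 CPM in Pachón and 6.86 to 40.3 CPM in Molino and oocyte markers to 7825 to 10971 CPM and 6282 to 6589.6 CPM, while stroma and smooth muscle markers, at 228 to 328 CPM and 347 to 549 CPM, and macrophage and granulocyte markers, at 17.1 to 20.3 CPM and 21.0 to 34.4 CPM, were lower in Pachón. At 300um oocyte markers summed to 4814 to 6012 CPM and 3462 to 3856 CPM, and macrophage and granulocyte markers to 16.0 to 21.4 CPM and 37.2 to 42.96 CPM. At 40um erythrocyte markers summed to 497 to 638 CPM in Pachón and 3864 to 5775 CPM in Molino. All lists other than oocytes summed there to 3185 to 9976 CPM and 10112 to 11402 CPM. At 100_300um stroma and smooth muscle markers summed to 272 to 294 CPM and 352 to 568 CPM. Macrophage and granulocyte markers there summed to 17.8 to 22.7 CPM and 36.2 to 41.1 CPM. None of these ranges overlapped, those of the other lists did, and their part in the differences was not tested.

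The stalk base protein rpl12 was at 280.2, 255 and 331 CPM in Molino and 744, 537 and 526 CPM in Pachón at 300um, a difference of 1.08 (SE 0.16, adjusted p = 0.000605). At 40_100um it was at 336, 401 and 322 CPM in Molino and 1216, 680.4 and 652 CPM in Pachón, a difference of 1.18 (SE 0.24, adjusted p = 0.00342). No Molino library of rpl12 reached the Pachón range in either class. Also higher in Pachón at 300um were rpl24 by 0.65 (SE 0.12, adjusted p = 0.00255) and rpl3 by 0.92 (SE 0.18, adjusted p = 0.00268), and at 40_100um rpl23 by 0.61 (SE 0.14, adjusted p = 0.00347) and rpl13 by 0.52 (SE 0.14, adjusted p = 0.00988). By role, 7 of 10 tunnel genes, 3 of 4 peptidyl transferase genes (rpl3, rpl4 and rpl10), 3 of 5 stalk genes (rplp0, rplp2l and rpl12) and 1 of 3 genes of the 5S particle (rpl5b) were higher in Pachón at 300um.

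A few genes were called lower in Pachón than in Molino, 1 of 51 at 40_100um and 4 of 51 at 100_300um. Among all genes 18.2% and 11.5% were lower, so these calls are not read as particular to the set. At 40_100um rpl7l1 was at 55.2, 50.0 and 58.5 CPM in Pachón and 77.9, 82.6 and 71.6 CPM in Molino, lower in Pachón by 0.58 (SE 0.16, adjusted p = 0.0115). At 100_300um rpl28 was at 28.4, 27.5 and 24.4 CPM in Pachón against the Molino values above, lower by 0.91 (SE 0.20, adjusted p = 0.00699). Also lower in Pachón at 100_300um were RPL38 by 0.53 (SE 0.13, adjusted p = 0.014), rpl29 by 0.79 (SE 0.20, adjusted p = 0.0162) and rplp2 by 0.49 (SE 0.16, adjusted p = 0.0448). The calls of RPL38 and rpl29 were lost in the fit of all 36 libraries (adjusted p = 0.185 and 0.106), that of RPL38 also without Pachón replicate 1 or 2 or Molino replicate 1 (adjusted p = 0.0513 to 0.0617) and that of rpl29 without Pachón replicate 1 or 2 or Molino replicate 1 or 2 (adjusted p = 0.0631 to 0.0776). The call of rplp2 was lost in 4 of 8 alternative analyses and without any of 6 libraries (adjusted p = 0.0519 to 0.127), and that of rpl7l1 in the fit of all 36 libraries (adjusted p = 0.0508).

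**Figure D4:**
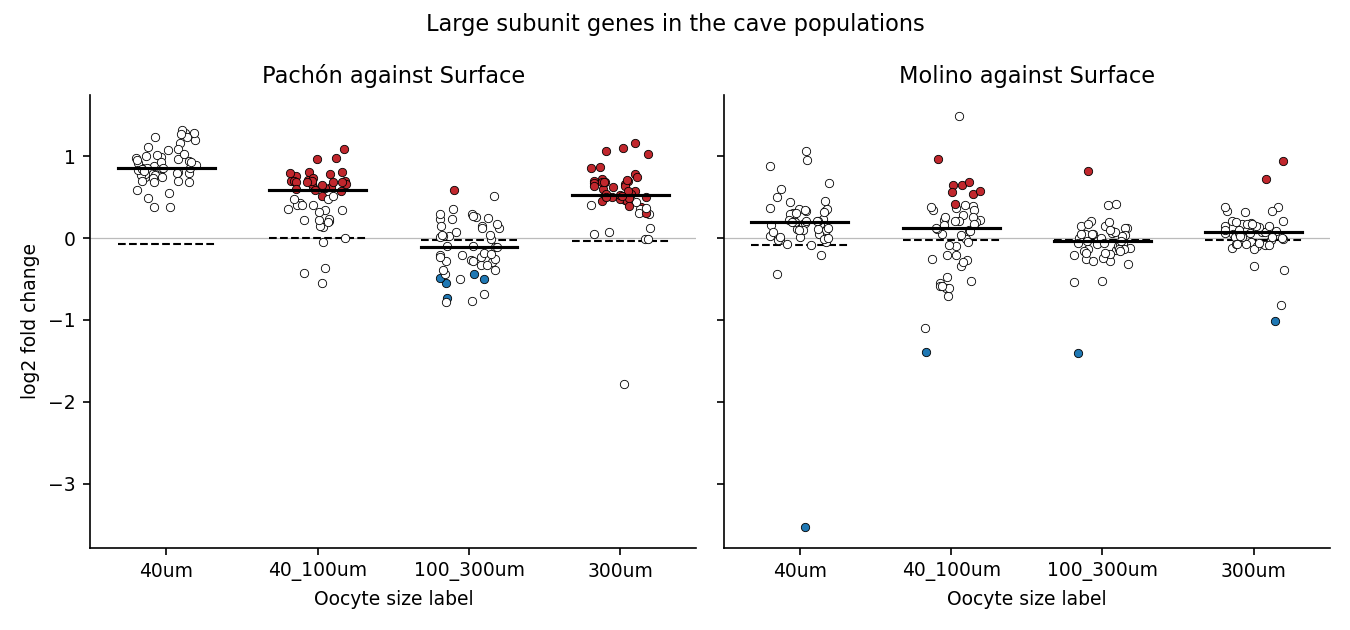
Log2 fold change (y axis) of the 51 tested large subunit genes in each cave population against surface fish, by size label (x axis); each point is a gene, red called higher, blue called lower and white not called, with the median of the set as a solid line and the median of all genes as a dashed line. The Pachón points lie above 0 at 40um without a call and are mostly red at 40_100um and 300um; the Molino set lies around 0 with a blue point at 40um, at -3.53.

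The copies and paralogs of rpl22 differed between populations at several sizes. The protein is dispensable in mice, whose Rpl22l1 rises when Rpl22 is lost. The main gene, rpl22 (ENSAMXG00000030881), was high in Pachón at each size. At 40um it was at 234, 269.8 and 206 CPM in surface fish, 442, 644 and 487 CPM in Pachón and 288, 208 and 225 CPM in Molino. The Pachón libraries stood apart, and the difference from surface fish, 1.197 (SE 0.36, adjusted p = 0.106), did not pass.

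At 40_100um the main rpl22 gene was at 130.2, 126 and 93.7 CPM in surface fish, 323, 205 and 203 CPM in Pachón and 86.8, 92.6 and 72.9 CPM in Molino. At 100_300um the values were 106, 96.2 and 76.1 CPM, 148, 151 and 134 CPM and 86.2, 76.4 and 92.1 CPM. At 300um they were 90.9, 90.5 and 58.0 CPM, 196, 157 and 155 CPM and 78.4, 70.3 and 78.4 CPM. Pachón lay above both other populations without overlap in each of these classes. Against surface fish the differences were 0.98 (SE 0.18, adjusted p = 0.00121) at 40_100um, 0.59 (SE 0.14, adjusted p = 0.0148) at 100_300um and 1.095 (SE 0.16, adjusted p = 0.000785) at 300um. Against Molino they were 1.45 (SE 0.18, adjusted p = 5.17e-05), 0.78 (SE 0.14, adjusted p = 0.00271) and 1.18 (SE 0.16, adjusted p = 0.000403) in the same order. It was the only gene of the set called higher in Pachón than in surface fish at 100_300um, a call lost without Pachón replicate 1 (adjusted p = 0.0539). Along the size steps, averaged over populations, it fell by 1.21 (SE 0.12, adjusted p = 3.23e-10) and by 0.36 (SE 0.12, adjusted p = 0.0193), the second of which was lost with library totals (adjusted p = 0.361) and without surface fish replicate 3 at 100_300um (adjusted p = 0.0509).

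The second gene, RPL22 (ENSAMXG00000038704), was low in Molino. At 40um it was at 70.3, 93.4 and 86.7 CPM in surface fish, 110.4, 134 and 123 CPM in Pachón and 8.45, 8.03 and 6.20 CPM in Molino. The groups are far apart, with Molino lower than surface fish by 3.53 (SE 0.37, adjusted p = 0.00921) and Pachón higher than Molino by 4.11 (SE 0.38, adjusted p = 0.00164). The call against surface fish was lost without Molino replicate 2 or 3 (adjusted p = 0.0555 to 0.0793). At 100_300um RPL22 was at 25.0, 12.7 and 12.4 CPM in surface fish and 6.53, 6.85 and 6.42 CPM in Molino, lower by 1.41 (SE 0.31, adjusted p = 0.0111), and at 300um at 11.9, 13.1 and 9.58 CPM and 5.25, 5.21 and 6.70 CPM, lower by 1.01 (SE 0.22, adjusted p = 0.0102). The last call was lost without Molino replicate 2 (adjusted p = 0.0549). At 40_100um RPL22 was at 12.4, 12.9 and 15.7 CPM in surface fish and 7.67, 12.1 and 7.75 CPM in Molino and was not called. In Pachón it was at 28.5, 14.4 and 18.2 CPM at 40_100um, 8.77, 11.2 and 10.5 CPM at 100_300um and 11.2, 10.8 and 13.7 CPM at 300um. In surface fish and Pachón no 40_100um library reached the 40um range, while the Molino libraries of these classes overlapped, which is the difference of the first step given above.

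The paralog rpl22l1 was higher in Molino than in surface fish at 40_100um, at 71.3, 85.8 and 49.1 CPM against 32.0, 37.5 and 35.96 CPM, a difference of 0.97 (SE 0.22, adjusted p = 0.00523). At 300um it was at 31.2, 29.3 and 33.7 CPM in Molino and 14.9, 13.3 and 20.6 CPM in surface fish, a difference of 0.94 (SE 0.21, adjusted p = 0.0121), which was not called without surface fish replicate 2 and Molino replicate 3, which had raised markers of other cells (adjusted p = 0.0661). It was high in Pachón in the same classes, at 81.1, 80.5 and 55.4 CPM at 40_100um and 45.1, 31.2 and 32.8 CPM at 300um. Copies of one protein can share sequence, and the counts do not show how reads that match several genes were treated, so the split between rpl22 and RPL22 is uncertain.

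**Figure D5:**
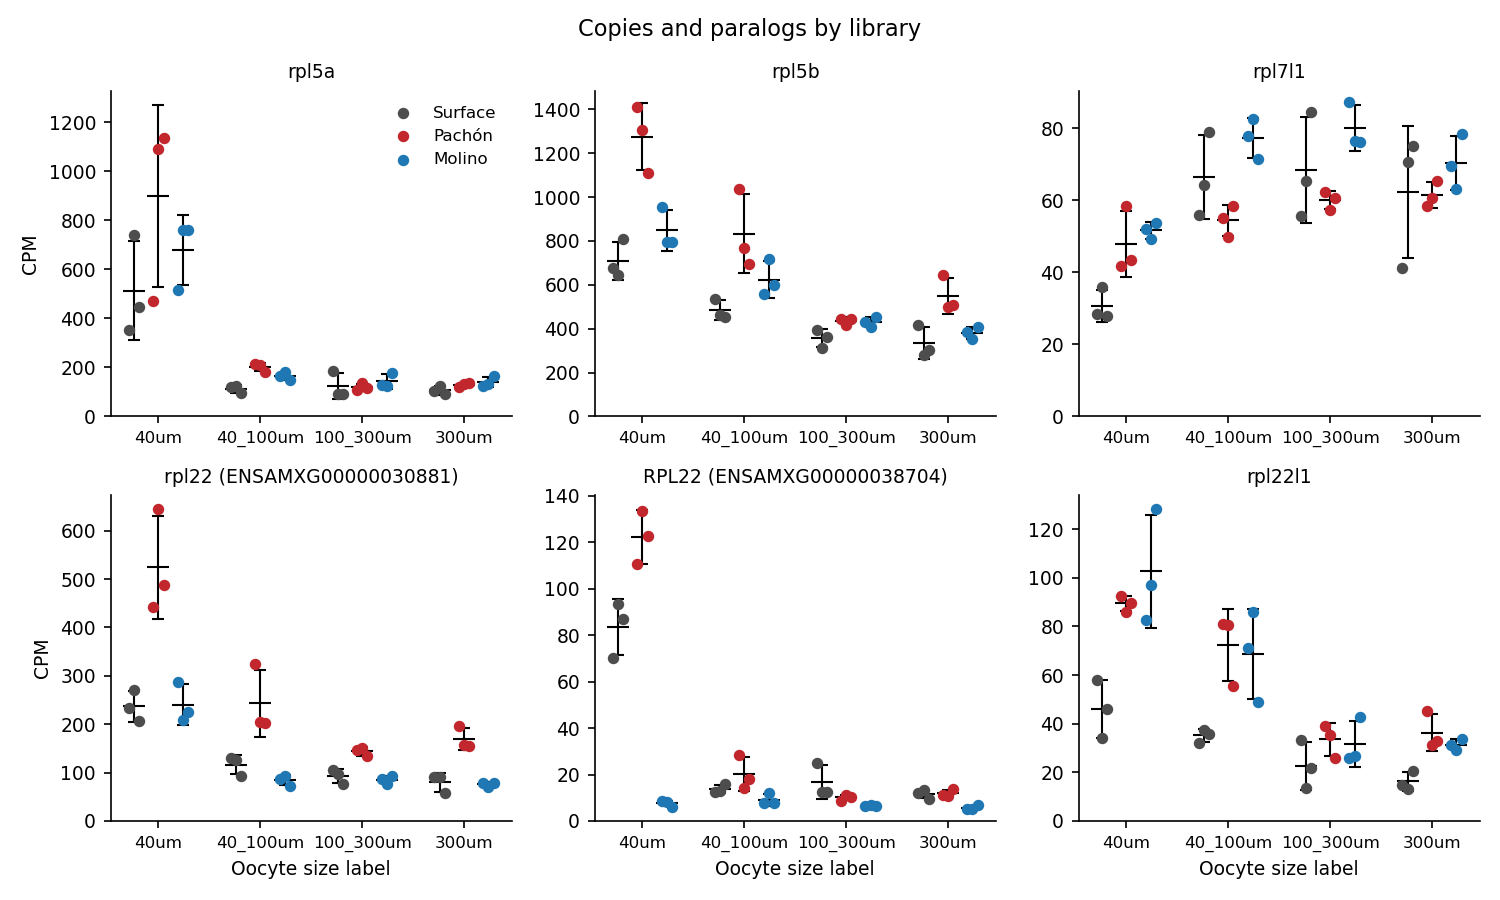
CPM (y axis, a separate scale in each panel, starting at 0) of 6 large subunit genes by size label (x axis) and population (colour); each point is a library, and the bar and whiskers are the mean and SD of 3. The panels show rpl5a falling further than rpl5b after 40um, rpl7l1 on average lowest at 40um, and rpl22 highest in Pachón. RPL22 (ENSAMXG00000038704) lies between 6.20 and 8.45 CPM in Molino at 40um.

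To compare copies and paralogs within a library, 9 pairs were taken as log2 ratios of CPM + 0.5 at the 3 steps, a test chosen after the values had been seen. The library's scaling nearly cancels in such a ratio where both genes are far above the 0.5 CPM added; for the low copies of rpl19 and rpl35a and for RPL3L the added value sets much of the ratio, and these ratios are not given. Each of the 27 comparisons used 9 libraries a class and a two-sided exact permutation test that exchanged sizes within each population (8000 arrangements, smallest possible p 0.00025, Benjamini-Hochberg adjusted over the 27). The ratio of rpl5a to rpl5b changed by -1.52 from 40um to 40_100um (exact permutation test, adjusted p = 0.00337), with libraries at -1.58 to 0.20 at 40um and at -2.28 to -1.77 at 40_100um, ranges that do not overlap. At the next step it changed by 0.32 (exact permutation test, adjusted p = 0.0357), with overlap. In the counts of these bulk libraries the balance of the copies thus moved toward rpl5b at the first step and partly back at the second. Markers of other cells and the share of reads matching several places also fell at the first step. How reads matching both copies were counted is not stated, and the part of these in the ratio was not tested.

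The ratio of rpl7l1 to rpl7 rose by 1.87 at the first step, with libraries at -5.47 to -4.28 at 40um and -4.08 to -2.36 at 40_100um, and by 0.77 at the second (exact permutation tests, adjusted p = 0.00337 and 0.00506). The ratio of rpl22l1 to the main rpl22 gene rose by 0.79 and then fell by 0.63 (exact permutation tests, adjusted p = 0.0045 and 0.027). This test did not pair same-numbered libraries at any step. At the last step no pair passed it. The replicate numbers pair the libraries of a population there. Same-numbered libraries also deviated together at the other steps, where no paired test of the ratios was run. An exact sign-flip test over the 9 same-numbered pairs (512 arrangements, smallest possible p 0.00391) was added after the unpaired result was known. Its p-values were adjusted within the same 27, together with the unpaired ones of the other steps, and it called 2 ratios. Adjusted over its own 9 tests, both ratios had an adjusted p of 0.0352 (paired exact test). That of rpl7l1 to rpl7 fell by 0.31 and was lower at 300um in 9 of 9 pairs (paired exact test, adjusted p = 0.0176, unpaired 0.111). That of RPL37 (ENSAMXG00000040983) to rpl37 (ENSAMXG00000014690) rose by 0.72 and was higher in 8 of 9 pairs (paired exact test, adjusted p = 0.0264, unpaired 0.051), with RPL37 at only 2.02 to 11.1 CPM at 100_300um.

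Other genes of ribosome production did not all follow the subunit proteins. At the first step the small subunit had 0 higher and 28 lower of 28 genes with a median of -1.28, and the second step 0 higher and 23 lower of 28 with a median of -0.48. Genes of 60S assembly and export had 34 higher and 4 lower of 47 at the first step with a median of 0.75, opposite in sign to the subunit they build. The smallest adjusted p-values among them were those of rpf2, which brings the 5S particle into the precursor and rose by 1.76 (SE 0.12, adjusted p = 4.91e-13), and MDN1, a motor protein that strips factors from the precursor and rose by 1.32 (SE 0.10, adjusted p = 2.99e-12). Genes of 5S RNA storage and transcription had 8 higher and 1 lower of 10, among them the La protein gene ssb, which rose by 1.60 (SE 0.15, adjusted p = 1.32e-10). That list holds genes of transcription and of storage together, and the calls are not split between them. No change of storage genes is read from it.

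Among all tested genes 29.8% were higher and 43.8% lower at the first step. RNA polymerase I genes had 9 higher and 5 lower of 16 at the first step, elongation factors 2 higher and 6 lower of 10, and genes that control the translation of ribosomal protein mRNAs 5 higher and 3 lower of 13. LARP1, which binds the start of these mRNAs, rose by 1.29 (SE 0.09, adjusted p = 1.65e-12), while eif4ebp2, eif4ebp3 and eif4ebp3l of the 4E-BP family of translation repressors fell. At the second step, where 24.6% of all genes were higher and 8.37% lower, 60S assembly had 10 higher and 7 lower of 47, elongation factors 1 higher and 5 lower of 10, 5S RNA storage and transcription 2 higher and 2 lower of 10, translation control 4 higher and 4 lower of 13 and RNA polymerase I 4 higher and 0 lower of 16. Between Pachón and surface fish at 300um, where 15.9% of all genes were higher and 16.5% lower, the small subunit had 17 higher and 0 lower of 28 genes, 60S assembly 14 higher and 5 lower of 47, elongation factors 3 higher and 0 lower of 10 and RNA polymerase I 2 higher and 4 lower of 15.

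Across the 36 libraries, 42 of the 53 genes had a Pearson correlation over 0.9 with the median of the set on the log2(CPM + 0.5) scale, and the median correlation was 0.959. These libraries share sizes and populations, so the values are a description. Each gene also enters the median it is compared with. The share of all genes over 0.9 is not given, so the count is not read as particular to the set. The 4 genes least like the median were rpl7l1 at -0.60, RPL3L at 0.23, RPL22 (ENSAMXG00000038704) at 0.70 and rpl19 (ENSAMXG00000043666) at 0.73. The low copies among the 53 genes had few reads over all libraries, 206 for rpl35a (ENSAMXG00000030807), 469 for rpl19 (ENSAMXG00000043666), 2596 for RPL37 (ENSAMXG00000040983) and 4772 for RPL22 (ENSAMXG00000038704). Without these 4, RPL3L and rpl7l1, the median change of the remaining 47 genes was -1.28 at the first step and -0.52 at the second.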

How the data were processed

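Total RNA was depleted of ribosomal RNA, made into strand-marking libraries and sequenced on a Singular Genomics G4, with PCR cycles that varied with the RNA input, per the labels' protocols. Reads were aligned with STAR 2.7.10b, and RSEM is named too, per the submitters' processing notes. Neither the genome build nor the handling of strand and of reads matching several genes is stated. The authors' deposited count table holds whole reads per gene; its 4 rows that name no gene (on average 20.5% of reads outside genes, 12.6% matching several places, 9.59% unmapped) stayed out of library sizes and tests. The normalised signal the authors deposited equals TMM-scaled CPM over 36 libraries (18259 genes, largest relative difference 5e-15).

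Counts were tested with edgeR 4.0.16 in R 4.3.3 (TMM, minimum count 10, minimum total 15, robust quasi-likelihood test, Benjamini-Hochberg adjustment over all genes, threshold 0.05), after a test on simulated data. Size steps and interactions came from 36 libraries, populations from the 9 of a class. CPM is not per length, so levels are not compared between genes. Replicates differed beyond counting error, so none was treated as a duplicate. The 8 alternatives were DESeq2 size factors, library totals, TMM without ribosomal protein genes, DESeq2 1.42.0, no expression filter, other libraries in the fit (all 36 for populations, 18 for size steps), replicate number as a block, and leaving out 3 libraries with raised markers of other cells; each library was also left out in turn. The last-step interactions, the ratios of copies, their paired test at the last step and the median without low copies were chosen after seeing the data.

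Members and lists were chosen with earlier results of these data known. Values are given for up to 4 called members each way per comparison by smallest adjusted p, anchors by role, the 4 members least correlated with the median, and up to 3 genes each way of the other lists; other members are named without a change, and the results of 1 member are not reported by name. At the last step same-numbered samples of a population deviated together (9 of 9 pairs, r of 0.278 to 0.615), so the numbers pair them, and the block gave 0 calls there as well.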

Additional observations from a re-analysis of the deposited data

Results flagged for a closer look

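The change from 40um to 40_100um of 4 large subunit genes differed between a cave population and surface fish, by the interaction in the fit of all libraries (edgeR quasi-likelihood test, adjusted over all genes). Of the 53 genes, 1 differed downward for Pachón, where 3.59% of all genes did, and for Molino 1 upward, where 1.36% did, and 2 downward, where 2.21% did, shares near those of all genes. For rpl7l1 the change in Pachón was lower than that in surface fish by a log2 difference of -0.92 (SE 0.27, adjusted p = 0.0362). For RPL22 (ENSAMXG00000038704) the change in Molino was higher than that in surface fish, at 2.88 (SE 0.37, adjusted p = 4.26e-05), and this call held in all 8 alternatives and each time a library was left out. For rpl29 it was lower in Molino, at -1.77 (SE 0.47, adjusted p = 0.0302), and for RPL37 (ENSAMXG00000040983) lower as well, at -2.38 (SE 0.66, adjusted p = 0.0399). The call of rpl7l1 was lost in 3 of 8 alternatives and without any of 7 libraries (adjusted p = 0.0597 to 0.15), that of rpl29 in 1 of 8 and without any of 6 libraries (adjusted p = 0.0516 to 0.0933) and that of RPL37 in 1 of 8 and without any of 8 libraries (adjusted p = 0.0533 to 0.152). The 40um libraries that enter each of the 4 differences had the widest spread of the size classes. RPL22 and RPL37 share their symbol with another gene, and how reads matching both copies were counted is not stated.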

How the results depend on the processing

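The directions of the first and second size step held under all 8 alternatives. The median of the large subunit genes at the first step was -1.05 without the expression filter, where more genes without reads enter. Library totals changed the median of the second step to -0.30, of Pachón against surface fish at 40um to 0.59 and of Pachón against Molino at 40um to 0.34. The medians of all genes moved with them. Relative to all genes the 3 medians were -0.70, 0.92 and 0.63 with library totals, against -0.71, 0.93 and 0.65 with TMM. Library totals changed the count of called genes to 1 at the last step, 0 for the first-step interaction of Pachón, 14 for Molino against surface fish at 40_100um, 5 for the same at 300um, and 26 and 23 for Pachón against Molino at 40_100um and 300um. DESeq2 gave 1 at the last step, 18, 2 and 5 at 40um (Pachón and Molino against surface fish, Pachón against Molino), 26 for Pachón against Molino at 40_100um, and 5 and 5 for Molino against surface fish at 100_300um and 300um. Without the filter the counts were 0 for the first-step interaction of Pachón and 3 for Pachón against surface fish at 100_300um. Other libraries in the fit gave 7 at the last step, 0 and 1 for the first-step interactions of Pachón and Molino, 1 for the last-step interaction of Pachón, 45, 4 and 29 at 40um, 1, 1 and 2 at 100_300um, and 19 and 12 for Pachón against surface fish and Molino at 300um. Without the 3 libraries with raised markers of other cells the counts were 4 for Molino against surface fish and 8 for Pachón against Molino at 100_300um, and 1 for Molino against surface fish at 300um. The cause of these shifts was not tested. The fit of all 36 libraries had a common dispersion of 0.129, below the 0.246 of the 40um fit and above the 0.0509 to 0.0691 of the other sizes. Shares of all genes under the alternatives are not given, so these counts describe the set alone.

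With the replicate block, Pachón against surface fish had 4 calls at 40um and 3 at 100_300um, and no other count moved by over 1.5 times. Same-numbered samples of a population also deviated together at the first and second steps, with r over 0.1 in 8 of 9 pairs at each. Their median r was 0.257 and 0.409. For different numbers it was -0.130 and -0.206. Deviations were taken from the mean of the 3 libraries of a group, so the second values follow from the first and are not a separate comparison. Between populations, same-numbered samples had a median r of 0.11 at 40um and -0.00082 to 0.042 at the other sizes. The tests of the first and second steps left this pairing out, apart from the replicate block.

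When single libraries were left out, the first-step interaction counts ranged from 0 to 6 for Pachón (median -0.49 to -0.0598) and 1 to 9 for Molino (median -0.44 to -0.0496), and the second-step median of Pachón was -0.80 to -0.37. Counts ranged from 0 to 1, 6 to 16, 1 to 4 and 2 to 6 for Molino against surface fish by rising size, 1 to 9 for Pachón against surface fish at 100_300um, and 6 to 27, 2 to 10 and 14 to 41 for Pachón against Molino from 40_100um upward. Medians ranged over 0.54 to 0.81 for Pachón against Molino at 40um, 0.35 to 0.69 for Pachón against surface fish at 40_100um and 0.24 to 0.59 for Pachón against Molino there.

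Of 2440 values of single genes under the alternatives, 2306 kept their side of the threshold, 129 lost it, 5 gained it and 0 changed sign. Of the 80 main values behind them 78 were calls, because values without a call were mostly left out. Most of the 2440 came from leaving out a single library. For size steps and interactions that library was often of neither class compared. The share that kept its side is therefore not read as a measure of how firm the calls are. At 40um the depth was 2992120 to 6866250 counts a library, and RPL3L and the low copies of rpl19 and rpl35a have too few reads for their changes to be read.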
